A study of Mus musculus with 24 samples.

Results

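The cluster of miR-322 and miR-503 is a set of microRNAs (miRNAs) processed from neighbouring hairpins on the X chromosome, and it is the mouse counterpart of human miR-424 and miR-503. Its members were chosen by name. The 6 members were mmu-miR-322-5p, mmu-miR-322-3p, mmu-miR-503-5p, mmu-miR-351-5p, mmu-miR-542-3p and mmu-miR-450a-5p, out of 1009 miRNAs listed. All 6 were present, and all 6 passed the filter for testing. The filter asked for a stage mean of 1 RPM (reads on miRNAs scaled to the same total in every library) or more at some stage, and 544 of the 1009 miRNAs passed it.

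A miRNA guides silencing proteins to messenger RNAs that pair with its seed, the bases near its 5′ end, and so lowers the output of those messages. The human locus is known to be induced by TGF-β and to restrain the anti-apoptotic gene Bcl2, the growth factor receptor Igf1r and cell cycle genes such as Ccnd1 and Cdc25a. Mice that lack the locus are known to regress the milk-producing epithelium more slowly after weaning, which is why the cluster is called a regulator of involution.

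Small RNA was sequenced from whole mammary glands of female C57BL/6 mice at 4 stages, with 6 mice at each. W10 glands came from adult mice of 10 weeks, P18 glands from day 18 of pregnancy, Lac7 glands from day 7 of lactation and Inv3 glands from day 3 of involution, the regression of the gland when milk is no longer removed. The sample titles give day 18 of pregnancy and day 7 of lactation, but no day of involution. Day 3 of involution is from the study's methods. The design text of the series gives lactation day 3 and involution day 7 instead. No treatment or mutation was named for any mouse, and the ages of the P18, Lac7 and Inv3 mice were not given in the sources used here. Reads assigned to miRNAs numbered from 660346 to 1165321 per library, and those of Lac7 ran from 660346 to 751890, the lowest median of the 4 stages (693166), although Inv3 mouse 6 had 722068. At these depths 3 reads corresponded to 2.57 to 4.54 RPM, which covers counting error only. Glands were homogenised whole, so fewer cells of a type and less RNA per cell cannot be told apart.

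The hairpins lie on the minus strand of chromosome X in GRCm38, from base 53047997 to base 53054349, a span of 6353 bases that holds 7 annotated hairpins. In the order of transcription they are Mir322, Mir503, Mir351, Mir542, Mir450-2, Mir450-1 and Mir450b. Mir322 (53054255 to 53054349) and Mir503 (53053984 to 53054054) are separated by 200 bases, and Mir351 follows after 630 bases. A wider gap of 3767 bases, in which the long noncoding RNA gene Gm28730 is annotated, precedes Mir542 (53049403 to 53049487). None of the 7 hairpins overlaps another annotated gene, and the noncoding transcript C430049B03Rik lies upstream of Mir322 on the same strand.

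**Figure D1:**
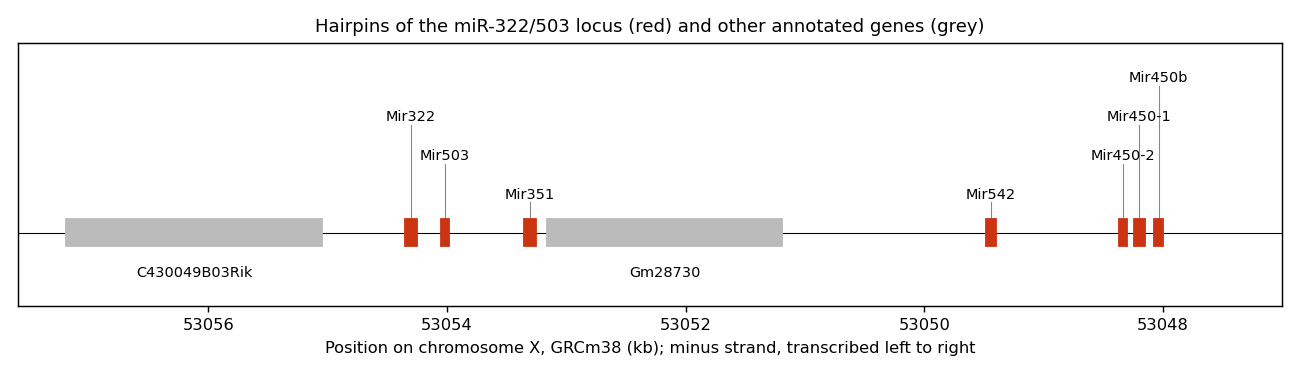
Map of the locus on chromosome X (GRCm38, kilobases on the horizontal axis, drawn in the direction of transcription on the minus strand). Red boxes are the 7 hairpins and grey boxes other annotated genes; Mir322, Mir503 and Mir351 sit together, and 3767 bases separate Mir351 from Mir542.

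The mature sequences below are from RefSeq (GRCm38.p6) and are shown because the seed, bases 2 to 8 in capitals, sets which messages each member can pair with. All 6 members were matched by name. The seeds of miR-322-5p and miR-503-5p are alike but not identical.
mmu-miR-322-5p: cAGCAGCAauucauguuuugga
mmu-miR-322-3p: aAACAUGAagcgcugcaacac
mmu-miR-503-5p: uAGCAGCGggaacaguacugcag
mmu-miR-351-5p: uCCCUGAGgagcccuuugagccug
mmu-miR-542-3p: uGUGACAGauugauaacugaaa
mmu-miR-450a-5p: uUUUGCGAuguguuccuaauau

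The same mature miR-450a-5p is encoded by Mir450-1 (53048206 to 53048227) and by Mir450-2 (53048339 to 53048360), so its reads cannot be assigned to 1 of the hairpins.

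mmu-miR-322-5p, the main product of its hairpin and the leading member, was highest in the adult gland and lowest in lactation. At W10 the lowest, median and highest of the 6 mice were 1796, 2604 and 3377 RPM, and at P18 they were 1613, 1933 and 2333 RPM. At Lac7 the same values were 743, 792 and 1031 RPM, and at Inv3 they were 1407, 1592 and 1982 RPM. Every Lac7 mouse lay below every mouse of the other stages, whereas W10, P18 and Inv3 overlapped. The means were 2605 ± 556 RPM at W10, 1968 ± 239 at P18, 1623 ± 191 at Inv3 and 827 ± 103 at Lac7 (SD, n = 6 each). The order was therefore W10, P18, Inv3, Lac7. P18 and Inv3 were neighbours that limma did not separate (adjusted p = 0.126), and W10 and P18 differed with an adjusted p of 0.0182 that was lost under another scaling, described below. Among the 1009 listed miRNAs, ordered by mean RPM, miR-322-5p ranked 45th at W10 and 65th at Lac7.

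mmu-miR-503-5p, encoded next to miR-322 and known as its partner in restraining the cell cycle, was lowest in lactation too. Its lowest, median and highest values were 57.2, 58.6 and 69.1 RPM at W10 and 66.9, 75.7 and 104 RPM at P18. They were 14.8, 22.01 and 40.7 RPM at Lac7 and 46.8, 73.4 and 101 RPM at Inv3. Lac7 did not overlap any other stage, and the Inv3 mice were spread widely enough to span all W10 values. The order of the means was P18 (80.0 ± 14.03 RPM), Inv3 (75.6 ± 22.5), W10 (60.6 ± 4.61) and Lac7 (24.1 ± 9.34; SD, n = 6 each), and limma separated no neighbours among the first 3.

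mmu-miR-351-5p, which carries the seed of the miR-125 family, had the same low point. The lowest, median and highest values were 49.5, 62.1 and 81.2 RPM at W10 and 36.3, 58.3 and 78.5 RPM at P18. At Lac7 they were 11.2, 16.8 and 20.1 RPM, and at Inv3 39.5, 58.1 and 74.1 RPM. W10, P18 and Inv3 overlapped throughout, with means of 63.9 ± 10.6, 57.6 ± 15.3 and 58.9 ± 12.01 RPM, and Lac7 stood apart at 16.3 ± 3.03 RPM (SD, n = 6 each).

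mmu-miR-322-3p, the less abundant arm of the miR-322 hairpin, ranged from 46.1 to 76.4 RPM in W10 glands and from 32.0 to 66.7 RPM in P18 glands. It ranged from 8.03 to 30.9 RPM in Lac7 glands and from 21.6 to 48.9 RPM in Inv3 glands. Unlike miR-322-5p, its Lac7 and Inv3 mice overlapped. Each Lac7 value rested on 6 to 22 reads.

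mmu-miR-542-3p, from the hairpin beyond the wide gap and known to target the survival gene Birc5, followed another course. Its lowest, median and highest values were 261, 294 and 350 RPM at W10 and 451, 473 and 558 RPM at P18. At Lac7 they were 326, 388 and 442 RPM, and at Inv3 219, 250 and 312 RPM. Inv3 was the lowest stage and every Inv3 mouse lay below every Lac7 mouse, while every P18 mouse lay above all others. The order of the means was P18 (493 ± 42.2 RPM), Lac7 (382 ± 41.1), W10 (301 ± 29.9) and Inv3 (254 ± 30.7; SD, n = 6 each), and of these neighbours limma did not separate W10 from Inv3 (adjusted p = 0.0885, or 0.0333 with a filter at 100 RPM). With size factors, edgeR and DESeq2 the difference of Inv3 from W10 turned to 0.13, 0.16 and 0.13 on the log2 scale, and that of Lac7 from P18 came to -0.067, -0.21 and -0.062, with adjusted p-values of 0.688, 0.212 and 0.699.

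mmu-miR-450a-5p was scarce, with 1.90 to 11.4 RPM over the 24 libraries. It was counted in every library, by 2 to 13 reads. No comparison of stages passed the test for it, and at this depth a difference of the size seen in miR-322-5p may not have been detectable.

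**Figure D2:**
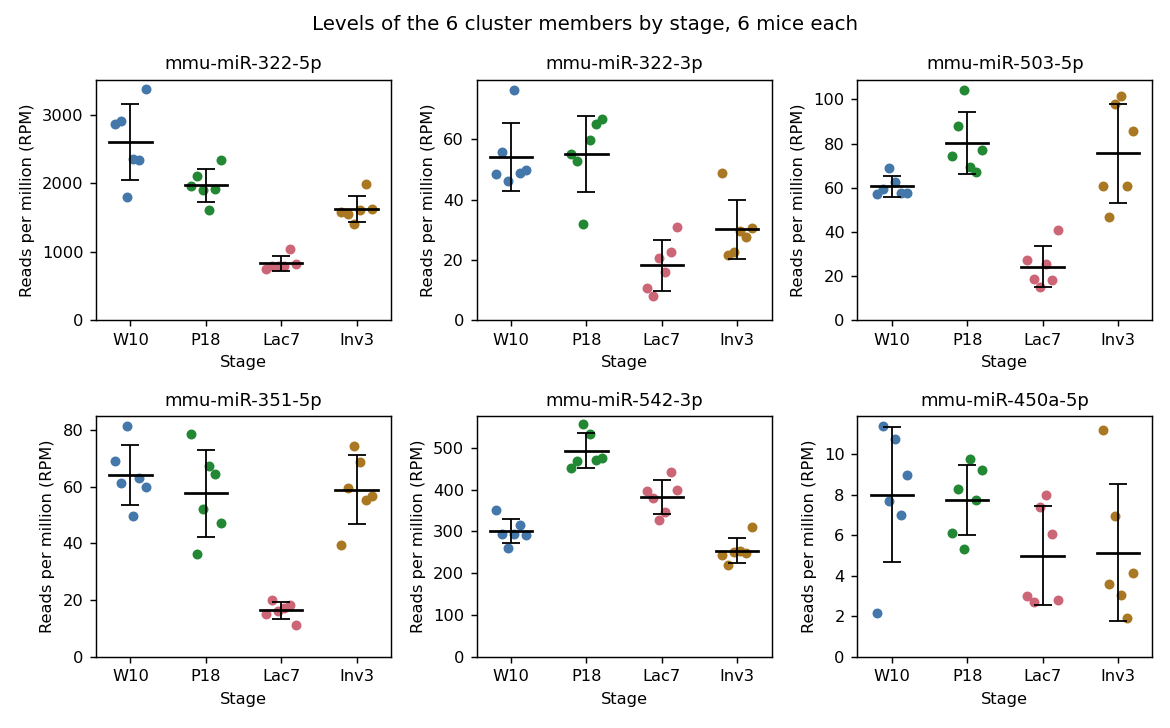
Level of each member in RPM (vertical axis, from 0) at the 4 stages (horizontal axis). Points are mice, wide bars are means and error bars are 1 SD (n = 6); miR-322-5p, miR-503-5p and miR-351-5p have all Lac7 mice below those of the other stages, and miR-542-3p is highest at P18 and lowest at Inv3.

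Together the 6 members summed to 3093 ± 559 RPM in W10 glands and 2661 ± 216 RPM in P18 glands, then to 1272 ± 137 RPM in Lac7 and 2047 ± 186 RPM in Inv3 glands (SD, n = 6 each). miR-322-5p supplied most of this sum at every stage, 83.8% ± 2.92 at W10 and 64.9% ± 2.15 at Lac7. The share of miR-542-3p went from 9.94% ± 1.53 at W10 to 30.1% ± 2.02 at Lac7 (SD, n = 6). Levels of different miRNAs in RPM also depend on how well each is captured in the library, so shares compare stages better than they compare members.

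Stages were compared with limma on log2(RPM + 1), with p-values adjusted over all 544 miRNAs tested. A miRNA was called when its adjusted p was under 0.05 and its log2 fold change was at least 1 in size. Fold changes on this scale understate those of scarce miRNAs. Numbers under an unadjusted p of 0.05 were counted for the members and named lists only, not for all 544 miRNAs.

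The change from late pregnancy to lactation, when the gland begins to secrete milk, was the step at which 4 of the 6 members fell. From P18 to Lac7 these 4 were called lower and 0 higher, against 22.6% of all tested miRNAs called lower and 7.54% called higher. miR-503-5p fell by 1.75 on the log2 scale (SE 0.22, adjusted p = 2e-07), miR-351-5p by 1.73 (SE 0.20, adjusted p = 6.57e-08) and miR-322-3p by 1.64 (SE 0.27, adjusted p = 1.1e-05). miR-322-5p fell by 1.25 (SE 0.13, adjusted p = 1.27e-08). With size factors and with DESeq2 it was at -0.95 and -0.94, under the fold limit, and 3 of 6 members were called. All miRNAs called lower in these settings numbered 90 and 77 of 544. In each of the 4 members called by limma, all 6 Lac7 mice were below all 6 P18 mice. Such separation was not counted over all 544 miRNAs, so nothing particular to the members is read from it. miR-542-3p differed by -0.37 (SE 0.11, adjusted p = 0.00826), under the fold limit and lost with other scalings as given above, and miR-450a-5p by -0.62 (SE 0.36, adjusted p = 0.165). The median of the 6 members was -1.45, and that of all 544 miRNAs -0.34.

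In early involution, when the secretory epithelium starts to die, miR-351-5p and miR-503-5p rose. From Lac7 to Inv3 these 2 of the 6 members were called higher and 0 lower, against 16.5% and 10.3% of all tested miRNAs, and nothing particular to the cluster is read from a count this small. miR-351-5p rose by 1.78 (SE 0.20, adjusted p = 4.27e-08), a 3.44-fold change, and miR-503-5p by 1.63 (SE 0.22, adjusted p = 5.34e-07), a 3.09-fold change. The Lac7 values rested on 8 to 15 reads per mouse for miR-351-5p and 10 to 29 for miR-503-5p. miR-322-5p was 0.97 higher (SE 0.13, adjusted p = 6.68e-07), with all 6 Inv3 mice above all 6 Lac7 mice, but was under the fold limit. With size factors, DESeq2 and edgeR its value was 0.80, 0.80 and 0.92, also under the limit, whereas without Lac7 mouse 5 (1.04) or without Inv3 mouse 3 (1.01) it passed. miR-322-3p was 0.78 higher (SE 0.27, adjusted p = 0.0175), and its adjusted p was 0.0604 with size factors, 0.0764 with DESeq2 and 0.0622 in a fit of only the 12 libraries compared. miR-542-3p went the other way, by -0.59 (SE 0.11, adjusted p = 0.000118), under the fold limit though without overlap between the stages. The median was 0.88 over the members and 0.28 over all tested miRNAs.

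Against the adult gland many miRNAs were lower in lactation, members among them. At Lac7 4 of the 6 members were called lower than at W10 and 0 higher, beside 39.7% of all tested miRNAs called lower and 10.5% called higher, so nothing particular to the members is read from this count. The 4 were miR-351-5p (-1.91, SE 0.20), miR-322-3p (-1.64, SE 0.27), miR-322-5p (-1.63, SE 0.13) and miR-503-5p (-1.37, SE 0.22), with adjusted p-values from 2.23e-11 to 5.33e-06. miR-503-5p was under the fold limit with size factors, edgeR and DESeq2 (-0.82, -0.86 and -0.76), which left 3 of 6 called. All miRNAs called lower in these 3 settings numbered 158, 161 and 128 of 544, in place of 216. miR-542-3p was 0.34 higher (SE 0.11, adjusted p = 0.0104), under the fold limit and with overlapping mice. With size factors, edgeR and DESeq2 this difference of miR-542-3p was 0.89 (adjusted p = 7.25e-07), 0.81 and 0.90, still under the limit.

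At P18 against W10, 0 members were called higher and 0 lower, beside 7.54% and 20% of all tested miRNAs. edgeR called 1 higher, miR-542-3p, beside 62 of all 544 miRNAs. DESeq2 called 0 members, beside 53 higher and 66 lower of all 544. The 2 members with an adjusted p under 0.05, which were also those with an unadjusted p under 0.05, were miR-542-3p, 0.71 higher (SE 0.11, adjusted p = 9.71e-06) with no overlap, and miR-322-5p, at -0.38 (SE 0.13, adjusted p = 0.0182).

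At Inv3 no member was called above its adult or late-pregnancy level. At Inv3 against W10, 0 members were called in either direction, beside 5.51% of all tested miRNAs called higher and 19.5% called lower. miR-322-5p was at -0.66 (SE 0.13, adjusted p = 0.000246) and miR-322-3p at -0.86 (SE 0.27, adjusted p = 0.0111), while miR-503-5p was at 0.26 (SE 0.22, adjusted p = 0.339). At Inv3 against P18, 0 members were called, beside 4.41% of all tested miRNAs called higher and 9.74% called lower. The member farthest from 0 there was miR-542-3p, at -0.96 (SE 0.11, adjusted p = 2.49e-07), with all 6 Inv3 mice below all 6 P18 mice. Without P18 mouse 3 miR-322-3p was called lower, at -1.01. Without Inv3 mouse 1 it was called lower against both P18 (-1.01) and W10 (-1.003), and without Inv3 mouse 6 miR-542-3p was called lower against P18 (-1.02). The unadjusted limma p was under 0.05 for 3 members in each of these comparisons, miR-322-5p, miR-322-3p and miR-542-3p. Without the same count over all tested miRNAs, nothing particular to the members is read from this. edgeR and DESeq2 called 0 members in either comparison. Of all 544 miRNAs edgeR called 51 higher and 60 lower against W10, and 29 and 37 against P18. DESeq2 called 49 higher and 50 lower against W10, and 31 and 31 against P18.

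RPM values are shares of a library, so they move when abundant miRNAs change. Scaling by the size factors of DESeq2 moved the median of all 544 log2 fold changes by 0.20 for P18 against W10, 0.20 for Lac7 against P18, -0.10 for Inv3 against Lac7, 0.35 for Lac7 against W10 and 0.31 for Inv3 against W10. For Inv3 against P18 the median moved by 0.098. Of all miRNAs called, the higher ones then made up 38.7% instead of 27.3% for P18 against W10, and 39.6% instead of 25.0% for Lac7 against P18. The same share was 37.3% instead of 20.9% for Lac7 against W10, 38.8% instead of 22.1% for Inv3 against W10 and 41.2% instead of 31.2% for Inv3 against P18. For Inv3 against Lac7 the share went the other way, to 54.9% from 61.6%. On that scale miR-322-5p was at -1.08 for Lac7 against W10. Its differences of P18 and of Inv3 from W10 became -0.13 (adjusted p = 0.477) and -0.28 (adjusted p = 0.143), and that of miR-322-3p at Inv3 from W10 became -0.49 (adjusted p = 0.181). miR-503-5p was at 0.63 for P18 against W10 (adjusted p = 0.0251) and 0.64 for Inv3 against W10 (adjusted p = 0.0308), both under the limit. miR-542-3p at Inv3 against W10 changed sign to 0.13 (adjusted p = 0.479), and so did miR-351-5p, to 0.25 (adjusted p = 0.401) there and to 0.072 for P18 against W10, and miR-503-5p, to 0.0075 for Inv3 against P18. The calls of miR-503-5p and miR-351-5p between Lac7 and Inv3 held, at 1.46 and 1.62, as did miR-542-3p's opposite sign there, at -0.76.

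The ratio of 2 members counted in the same library does not depend on this scaling. The log2 ratio of miR-322-5p to each of the other 5 members was compared between stages by two-sided exact permutation tests over all divisions of the 12 mice into 6 and 6, with 0.5 reads added, and p-values were adjusted over all 30 tests. The smallest p these divisions can give is 0.00216. After adjustment 8 of the 30 were under 0.05.

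The ratio of miR-322-5p to miR-542-3p changed most regularly. The lowest, median and highest ratios were 6.87, 8.07 and 11.6 in W10 glands and 3.03, 4.19 and 4.91 in P18 glands, and then 1.87, 2.17 and 2.43 in Lac7 and 5.19, 6.41 and 7.96 in Inv3 glands. No stage overlapped another except W10 with Inv3. From Lac7 to Inv3 the mean log2 ratio rose by 1.56, with all 6 Inv3 mice above all 6 Lac7 mice, and from P18 to Lac7 it fell by 0.88 (exact permutation p = 0.00216 and adjusted p = 0.0130 for both). P18 against W10 (-1.10), Lac7 against W10 (-1.98) and Inv3 against P18 (0.68) had the same exact p and adjusted p, whereas Inv3 against W10 (-0.42) had an exact permutation p of 0.0173 and an adjusted p of 0.0577. That last comparison passed with 2 reads added (-0.42, adjusted p = 0.0433) and without W10 mouse 3 or Inv3 mouse 5 (both -0.48).

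Against its nearer neighbours miR-322-5p changed less evenly. Its ratio to miR-351-5p was 0.82 lower on the log2 scale at Inv3 than at Lac7 (difference -0.82, exact permutation p = 0.00433, adjusted p = 0.0216), with overlapping mice. At Inv3 against W10 that ratio passed only without W10 mouse 3 (-0.71). Its ratio to miR-503-5p was lower at P18 than at W10 (difference -0.77, exact permutation p = 0.00866, adjusted p = 0.0371) and lower at Inv3 than at W10 (-0.93, exact permutation p = 0.0130, adjusted p = 0.0487). The last value did not pass the adjusted threshold when any of 9 of the 12 mice was left out, and the P18 value did not without W10 mouse 7 (-0.68), while Lac7 against P18 passed only without Lac7 mouse 6 (0.67). The ratio of the arms miR-322-5p and miR-322-3p had medians of 49.5 (W10), 34.96 (P18), 45.7 (Lac7) and 56.8 (Inv3), and 0 of its 6 comparisons passed the exact permutation test after adjustment. Of these 6, 1 had an unadjusted exact p under 0.05, for Inv3 against P18 (difference 0.60, p = 0.0411), and that comparison passed after adjustment without Inv3 mouse 1 (0.75). For miR-450a-5p 0 of 6 comparisons passed, and 3 had an unadjusted exact p under 0.05, all with Lac7. With 2 reads added in place of 0.5 these 3 passed after adjustment (-0.89 for Lac7 against P18, 1.16 for Inv3 against Lac7 and -1.31 for Lac7 against W10), and Lac7 against W10 also passed without W10 mouse 3 (-1.21) or Lac7 mouse 6 (-1.20).

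**Figure D3:**
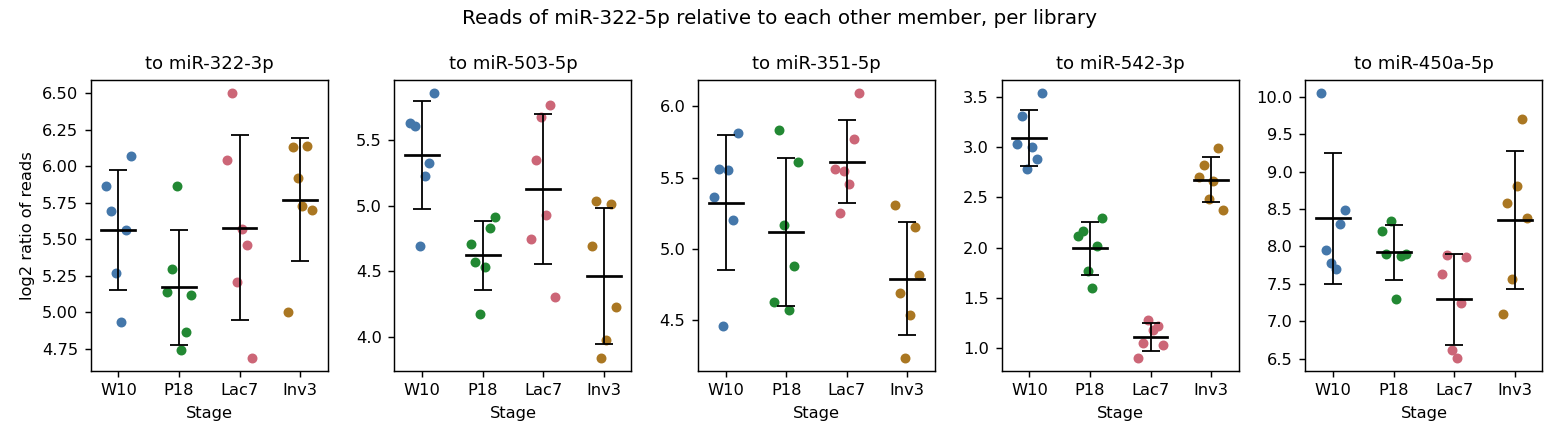
log2 ratio of the reads of miR-322-5p to those of each other member, 0.5 reads added (vertical axes, each with its own range), at the 4 stages. Points are libraries, wide bars are means and error bars are 1 SD (n = 6); the ratio to miR-542-3p separates Lac7 from all other stages, and the ratio to miR-322-3p overlaps at all of them.

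Whether the members deviated together from mouse to mouse was examined within stages, and 0 of 5 relations passed the permutation test. After subtraction of stage means, 5 relations were computed over the 24 mice. With miR-322-5p, Pearson's r was 0.19 for miR-322-3p (permutation p = 0.325, adjusted p = 0.411) and 0.22 for miR-542-3p (permutation p = 0.328, adjusted p = 0.411). It was -0.21 for miR-503-5p (permutation p = 0.253), -0.29 for miR-351-5p (permutation p = 0.160) and -0.12 for miR-450a-5p (permutation p = 0.631), with adjusted p from 0.411 to 0.631. Spearman's rho ran from -0.32 (miR-351-5p) to 0.31 (miR-322-3p), with permutation p from 0.149 to 0.673 and adjusted p from 0.375 to 0.673. Without the 2 mice farthest from the median of miR-322-5p, r ran from -0.20 to 0.22 over 22 mice.

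Of the 7 other arms of the hairpins that were listed, 6 were tested and 0 were called in any of the 6 comparisons by limma, edgeR or DESeq2. Of all tested miRNAs limma called 4.41% to 16.5% higher and 9.74% to 39.7% lower over these comparisons. By unadjusted p under 0.05 the limma counts of these arms were 0, 2, 1, 1, 2 and 2 of 6 for P18 against W10, Lac7 against P18, Inv3 against Lac7, Lac7 against W10, Inv3 against W10 and Inv3 against P18. All tested miRNAs were not counted in that way, and nothing particular to the locus is read from counts this small. mmu-miR-351-3p was at 0 in 20 of the 24 libraries. mmu-miR-542-5p had a mean of 48.8 ± 7.52 RPM in W10 glands, 41.5 ± 7.97 in P18 glands, 30.6 ± 5.57 in Lac7 and 33.4 ± 3.70 in Inv3 glands. mmu-miR-450b-3p had 72.6 ± 9.31 RPM at P18 and 41.9 ± 13.7 at Inv3 (SD, n = 6 each), a log2 fold change of -0.82 (SE 0.21, adjusted p = 0.00413) under the limit. Its sequence differs from that of mmu-miR-450a-1-3p at 2 of 22 positions, so the split of reads between them is uncertain.

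miR-322-5p shares its seed with 6 other listed miRNAs, the miR-15, miR-16, miR-195 and miR-497 group, which is known to act on the same cell cycle and Bcl2 messages. A pair of relatives is shown beside it because their sums make up most reads of the seed.
mmu-miR-16-5p: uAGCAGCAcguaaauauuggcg
mmu-miR-195a-5p: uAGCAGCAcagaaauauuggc

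miR-322-5p supplied a small part of the reads with this seed, 1.98% ± 0.391 in W10 glands, 1.67% ± 0.208 in P18 glands, 1.17% ± 0.108 in Lac7 and 1.60% ± 0.114 in Inv3 glands (SD, n = 6 each). The summed level of the seed was 131380 RPM at W10 and 70565 RPM at Lac7, and mmu-miR-16-5p made up most of it. mmu-miR-497a-5p was called lower from P18 to Lac7 (-1.18) and higher from Lac7 to Inv3 (1.36), as miR-503-5p was. The other 5 relatives with this seed were called in neither comparison. From P18 to Lac7 all 5 were lower with an adjusted limma p under 0.05, at -0.51 to -0.98, under the fold limit. From Lac7 to Inv3 mmu-miR-16-5p (0.52), mmu-miR-15a-5p (0.57) and mmu-miR-195a-5p (0.58) were higher, with adjusted p from 1.92e-05 to 0.00138. mmu-miR-15b-5p (-0.21, adjusted p = 0.358) and mmu-miR-195b (0.83, adjusted p = 0.0536) did not pass there.

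miR-351-5p shares its seed with mmu-miR-125a-5p and mmu-miR-125b-5p, which are far more abundant.
mmu-miR-125b-5p: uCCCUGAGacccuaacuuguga
mmu-miR-125a-5p: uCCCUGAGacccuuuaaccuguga

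Its share of the reads with this seed was 0.182% ± 0.0268 in W10 glands, 0.365% ± 0.0762 in P18 glands, 0.195% ± 0.0526 in Lac7 and 0.347% ± 0.161 in Inv3 glands (SD, n = 6 each). mmu-miR-125b-5p was called lower at Lac7 than at P18 (-1.73) and higher at Inv3 than at Lac7 (1.77). mmu-miR-125a-5p was called in neither comparison, at 0.013 (adjusted p = 0.967) and 0.54 (adjusted p = 0.0249). The seeds of the other 4 members were found in no other listed miRNA.

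Over the 24 libraries, the miRNAs whose pattern was most like that of miR-322-5p, among miRNAs that averaged 100 RPM or more at some stage, were mmu-miR-16-5p (Pearson's r = 0.94), mmu-miR-300-3p (0.93), mmu-miR-411-5p (0.92), mmu-miR-199a-5p (0.92) and mmu-miR-3964 (0.91). Among all 543 other tested miRNAs, miR-351-5p ranked 46th (r = 0.81), miR-322-3p 53rd (0.80), miR-503-5p 103rd (0.70), miR-450a-5p 289th (0.31) and miR-542-3p 397th (-0.11). These values describe the 24 libraries, which share stages, and carry no test.

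Markers of the cell types in the gland moved across the same stages. The 6 epithelial miRNAs of the miR-200 family and miR-205 were all found, and their sum was 17207 RPM in W10 glands, 58052 in P18 glands, 122698 in Lac7 and 49294 in Inv3 glands on average. The lowest, median and highest sums were 15083, 16563 and 21387 RPM in W10 glands and 49216, 58513 and 64031 RPM in P18 glands, then 113795, 119908 and 133198 RPM in Lac7 and 24194, 45643 and 78695 RPM in Inv3 glands. miR-200a-3p was the most abundant of them at each stage. From P18 to Lac7 4 of the 6 were called higher and 1 lower, and from Lac7 to Inv3 1 was called higher and 5 lower.

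The 6 stromal miRNAs, of which miR-143-3p was the most abundant, summed to 170091 to 212055 RPM (W10), 191202 to 215025 (P18), 147091 to 171333 (Lac7) and 257041 to 350093 (Inv3), with medians of 178152, 199778, 160945 and 293669 RPM. Of these 6, 3 were called lower from P18 to Lac7 and 4 higher from Lac7 to Inv3. The 3 myeloid miRNAs, led by miR-142a-5p, summed to 24721 to 47268 RPM (W10), 6903 to 23187 (P18), 3939 to 11992 (Lac7) and 12884 to 23540 (Inv3), with medians of 43746, 18977, 4761 and 16910 RPM. Of them 2 were called lower from P18 to Lac7 and 3 higher from Lac7 to Inv3. The 2 lymphocyte miRNAs, led by miR-150-5p, summed to 869 to 1689 RPM (W10), 192 to 530 (P18), 37.5 to 201 (Lac7) and 238 to 673 (Inv3), with medians of 1337, 418, 59.2 and 312 RPM, and both were called lower and then higher. From P18 to Lac7 edgeR called 2 stromal, 2 myeloid and 2 lymphocyte miRNAs of these lists, and DESeq2 called 2, 1 and 1. The sums of these 3 lists had their lowest medians at Lac7, as miR-322-5p, miR-503-5p and miR-351-5p did, and their part in the result was not tested. miR-143-3p itself was lowest at W10, with 92349 ± 6872 RPM against 138521 ± 7231 RPM at Lac7 (SD, n = 6 each), and differed by -0.071 for Lac7 against P18 (adjusted p = 0.525).

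The 2 endothelial miRNAs, led by miR-126a-3p, summed to 12532 to 19549 RPM over all libraries, and 0 of 2 were called in any comparison by limma, edgeR or DESeq2. From P18 to Lac7 both had an unadjusted limma p under 0.05, and from Lac7 to Inv3 1 did. The 4 skeletal muscle miRNAs, led by miR-133a-3p, summed to 2378 to 24031 RPM (W10), 194 to 2420 (P18), 104 to 5001 (Lac7) and 215 to 947 (Inv3), with medians of 11360, 444, 2312 and 274 RPM. Of these 4, limma called 0 from P18 to Lac7 (edgeR and DESeq2 each 1, and 0 by unadjusted p) and 2 lower from Lac7 to Inv3, where edgeR called 4 and DESeq2 3. Of the 4 red blood cell miRNAs 3 were found, led by miR-451a, and their sum ran from 371 to 1953 RPM over the 24 libraries, with 1 of 3 called higher from P18 to Lac7 and 1 lower from Lac7 to Inv3. The liver miRNA miR-122-5p had medians of 0.540 RPM (W10), 1.56 (P18), 1.495 (Lac7) and 73.8 (Inv3), and reached 2062 RPM in 1 P18 library. It was called from Lac7 to Inv3 by limma and edgeR, not by DESeq2, and for P18 against W10 and Lac7 against P18 by edgeR and DESeq2, not by limma. No listed marker had a mean of 0 at any stage, and the part of these lists in the result was not tested.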

How the data were processed

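Small RNA libraries (QIAseq miRNA kit, RNA from the mirVana kit) of 24 mammary glands were analysed. The authors deposited values in RPM, reads assigned to miRNAs scaled to a common library total. The submitters' processing notes name Trimmomatic 0.36, cutadapt, FastQC, MultiQC and GRCm38, and the study's methods name QuickMIRSeq for mapping. Whether molecular identifiers were used in counting is not given in the sources used here. Each column summed to the same total, and 100% of its values were whole multiples of the value of 1 read, within 0.0051 RPM, so whole reads were recovered. No pair of libraries of 1 stage was alike within counting noise (chi-square per degree of freedom at least 9.63 over 60 pairs).

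The main test was limma 3.58.1 (R 4.3.3) with a mean-variance trend on log2(RPM + 1), 1 fit over 24 libraries and 6 contrasts, two-sided, with Benjamini-Hochberg adjustment over 544 miRNAs. Ratios were tested by exact permutation and relations by 100000 permutations within stages. Alternatives were pseudocounts of 0.1 and 10, no filter, a filter at 100 RPM, DESeq2 1.42.0 size factors, edgeR 4.0.16 and DESeq2 on recovered reads, fits of 12 libraries, mouse number as a block, and leaving out each mouse. Named miRNAs were the 6 members, the other arms of the locus, miRNAs with a member's seed, the 5 most like miR-322-5p and markers of 8 tissues or cell types (epithelium, stroma, muscle, endothelium, lymphocytes, myeloid cells, red blood cells, liver). The members and lists were chosen with earlier results of these data known. Mice were taken as separate animals from their titles. Treated T47D cells of the study were not analysed here.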

Additional observations from a re-analysis of the deposited data

Results flagged for a closer look

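Within a stage, a mouse was singled out when its gap to the nearest other mouse exceeded the 95% critical share of the range of the 6 mice. This was looked at in 56 groups, for 13 arms of the locus and the sum of the 6 members, and picked out 9. Chance flags about 1 in 20 groups. Lac7 mouse 5 was far above its stage in miR-322-5p (1031 RPM, the next mouse at 815) and in the sum of the 6 members (1539 RPM, the next at 1299). Inv3 mouse 5 was high in miR-322-5p (1982 RPM, the next at 1619). W10 mouse 4 (76.4 RPM) and Inv3 mouse 1 (48.9 RPM) were high in miR-322-3p. Inv3 mouse 6 was high in miR-542-3p (312 RPM, the next at 253), and P18 mouse 3 in miR-503-3p (18.1 RPM). miR-351-3p was at 0 in all but 1 mouse at W10 (mouse 3, 1.10 RPM) and at Lac7 (mouse 1, 1.5 RPM), which is 1 read in each.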

How the results depend on the processing

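With 1 mouse left out, 68 of 72 counts of members called lower and 70 of 72 of members called higher equalled those of the full set. The exceptions were the members called lower at Inv3, with a range of 0 to 1 against W10 and 0 to 1 against P18, and those called higher at Inv3 against Lac7, with 2 to 3. Under the other settings 278 of 300 log2 fold changes of members and 54 of 60 ratios kept their direction and their side of the threshold. With 1 mouse left out, the log2 fold change of miR-322-5p for Inv3 against Lac7 ran from 0.91 to 1.04.

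With a filter at 100 RPM only miR-322-5p and miR-542-3p of the members are tested, and 1 member was called lower at Lac7 against P18, 1 at Lac7 against W10, and 0 higher at Inv3 against Lac7. All miRNAs called higher and lower then numbered 23 and 46 (P18 against W10), 21 and 46 (Lac7 against P18), 36 and 30 (Inv3 against Lac7), 28 and 71 (Lac7 against W10), 18 and 41 (Inv3 against W10), and 8 and 24 (Inv3 against P18), since fewer are tested, and miR-542-3p at Inv3 against W10 had an adjusted p of 0.0333. With a pseudocount of 10 the numbers called lower were 60, 54, 35, 114, 50 and 25 in that order of comparisons, and those called higher were 44, 19 and 9 at Inv3 against Lac7, W10 and P18. edgeR called 62 higher and 71 lower at P18 against W10, 90 higher at Lac7 against W10, and 51 higher and 60 lower at Inv3 against W10, with 1 member higher at P18 against W10. DESeq2 called 66 lower at P18 against W10, 64 higher and 77 lower at Lac7 against P18, 95 and 128 at Lac7 against W10, 49 and 50 at Inv3 against W10, and 31 lower at Inv3 against P18. Size factors gave 94 higher at Lac7 against W10 and 63 lower at Inv3 against W10. The log2 fold change of miR-322-5p at Lac7 against P18 was -0.95 with size factors and -0.94 with DESeq2. miR-503-5p at Lac7 against W10 was under the fold limit with size factors, edgeR and DESeq2 (-0.82, -0.86 and -0.76), and miR-322-3p at Inv3 against W10 was no longer under an adjusted p of 0.05 with the same 3 (-0.49, -0.43 and -0.45). The cause was not tested for any change given here other than that of the filter.

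Signs changed only for values that were not called. For P18 against W10, miR-351-5p was at 0.072, 0.15 and 0.11 with size factors, edgeR and DESeq2, and miR-450a-5p at -0.00296 with a pseudocount of 10. For Inv3 against W10, miR-351-5p was at 0.25, 0.29 and 0.26 and miR-542-3p at 0.13, 0.16 and 0.13 with the same 3. For Inv3 against P18, miR-503-5p was at 0.0075, 0.025 and 0.033. For Inv3 against Lac7, miR-450a-5p was at 0.00226 with a pseudocount of 10 and 0.020 with edgeR. With 1 mouse left out, the ranges were -0.052 to 0.15 for miR-322-3p and -0.22 to 0.17 for miR-450a-5p (P18 against W10), -0.26 to 0.16 for miR-450a-5p (Inv3 against Lac7), and -0.21 to 0.0065 for miR-503-5p and -0.073 to 0.16 for miR-351-5p (Inv3 against P18).

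For the log2 ratio of miR-322-5p to another member, adding 2 reads gave -0.13 for miR-322-3p (Lac7 against W10), -0.42 for miR-542-3p (Inv3 against W10), and -0.89, 1.16 and -1.31 for miR-450a-5p (Lac7 against P18, Inv3 against Lac7, Lac7 against W10), the last 4 past the adjusted threshold. With no reads added, miR-450a-5p was at 0.044 for Inv3 against W10. With 1 mouse left out, the ranges were -0.17 to 0.19 (Lac7 against W10) and 0.51 to 0.75 (Inv3 against P18) for miR-322-3p, and -0.91 to -0.68 (P18 against W10), 0.38 to 0.67 (Lac7 against P18) and -1.07 to -0.80 (Inv3 against W10) for miR-503-5p. They were -0.71 to -0.42 for miR-351-5p and -0.48 to -0.33 for miR-542-3p (both Inv3 against W10), and -1.22 to -0.75 (Lac7 against W10) and -0.29 to 0.32 (Inv3 against W10) for miR-450a-5p. Comparisons that passed the adjusted threshold with a mouse left out, and not with all mice, were miR-322-3p (Inv3 against P18), miR-503-5p (Lac7 against P18) and miR-351-5p (Inv3 against W10), each without 1 mouse, and miR-542-3p (Inv3 against W10) and miR-450a-5p (Lac7 against W10), each without either of 2, of which the last 2 also passed with 2 reads added. All 5 relations between mice kept their sign and their side of the threshold with size factors, where that of miR-322-5p with miR-542-3p went from r = 0.22 to 0.44 (permutation p = 0.0474, adjusted p = 0.237).

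The mice share only numbers. Same-numbered mice deviated with a mean correlation of -0.045 over 33 pairs, 13 of them above 0.1, and 3 of 23 libraries were closest to one of their own number. With the number as a replicate block, the members called were 4 lower at Lac7 against P18, 2 higher at Inv3 against Lac7 and 4 lower at Lac7 against W10, as without it, and miR-322-3p at P18 against W10 was at -0.094 and miR-322-5p at -0.32 (adjusted p = 0.0506). Depth limits miR-450a-5p and the scarcer arms most.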

Other observations

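The arms of the Mir542 hairpin kept different proportions across the stages. The lowest, median and highest ratios of miR-542-3p to miR-542-5p reads were 4.68, 6.23 and 8.12 at W10, 9.34, 11.98 and 14.02 at P18, 9.64, 12.8 and 15 at Lac7, and 5.73, 7.57 and 10.5 at Inv3. The W10 mice did not overlap the P18 or the Lac7 mice, while Inv3 overlapped every other stage. The ratio of miR-503-5p to miR-503-3p had medians of 6.51, 7.51, 3.09 and 11.1 in the same order of stages, on 2 to 17 reads of the scarcer arm. These ratios were chosen after their values were seen and were not tested.

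Grouped by the wide gap in the locus, also after the values were seen, 4 of the 5 tested arms of Mir322, Mir503 and Mir351 were called lower from P18 to Lac7, and 0 of the 7 arms of Mir542 and the Mir450 hairpins, beside 22.6% of all tested miRNAs. From Lac7 to Inv3 the counts called higher were 2 of 5 and 0 of 7, beside 16.5% of all tested miRNAs. The median log2 fold changes from P18 to Lac7 were -1.64 and -0.37. With so few arms a count of 0 of 7 is not far from these shares, and the difference between the groups was not tested.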
